A study of Mus musculus with 11 samples.

Results

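The genes described here encode the proteins of the cytosolic ribosome, read by bulk RNA-seq from sorted precursor exhausted CD8 T cells of mouse tumors. They were chosen by symbol alone, as the rows named Rpl or Rps followed by a number and at most 1 letter (a, l, x or y), together with Rplp0, Rplp1, Rplp2 and Rpsa. Rows with a -ps symbol and the S6 kinases were left out, and 82 of the 32469 symbols remained, 50 of the large subunit and 32 of the small subunit. The genes are spread over 19 chromosomes, with 14 of them on chromosome 7. In GENCODE M21, 79 are annotated as protein-coding genes, while Rpl32l, Rpl6l and Rps4l are annotated as processed pseudogenes.

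With these libraries the study asked whether blocking LAG-3, an inhibitory receptor of exhausted T cells, brings back its expansion signature in precursor exhausted cells. Wild-type C57BL/6 mice, 8 weeks old by the methods, carried subcutaneous tumors of the transplanted mouse line LLC (Lewis lung carcinoma) in both flanks. The first tumor was removed on day 14 in both groups, and the sorted cells came from the tumor removed later, on day 18 by the methods and on day 21 by the deposited description of the series. The 6 aLAG3 mice received 200 µg of the anti-LAG-3 antibody C9B7W on days 14 and 16, and the 5 untreated mice received no treatment, so that an effect of injecting an antibody as such cannot be told apart from the blockade. The sort gate was CD8+PD-1+Ly108+TIM-3-CD62L-, and each library stands for the cells of 1 mouse. By the characteristics in the labels the groups differ in treatment, the codes in the sample titles differ between them as well, and the model is a transplanted tumor of a single line and the mice have already had a tumor excised.

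Ribosomal proteins assemble on ribosomal RNA in the nucleolus, the large and the small subunit leave the nucleus separately, and the proteins are needed in equal numbers, so their mRNAs are among the most abundant and most evenly expressed of a cell. Most of these mRNAs begin with a 5' terminal oligopyrimidine (TOP) motif, a C followed by a run of pyrimidines, through which mTORC1 and LARP1 control their translation. In T cells, activation and growth raise ribosome production, and MYC is a well-known driver of this program. In the study, single cells of other mice gave a list of genes reported as higher in cells of expanding than of contracting clones. In that list stand 7 ribosomal protein genes. The study set ribosomal genes aside when it made its expansion signature from the list.

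The TOP motif was looked for in RefSeq promoter sequences of GRCm38.p6, which held 60 of the 82 genes with 72 annotated starts. Of these 60 genes, 14 had a start that is a C followed by at least 4 bases that are C or T, read on the strand of the gene. This is 23.3% of them, against 3.01% of the 27025 genes in the table. Below are 40 bases before and 30 bases from the start of 5 such genes that the results return to, with the pyrimidine run at the start in capitals. Rpl38, Rpl35a and Rps21 are among the members with the largest lower values after LAG-3 blockade, Rps6 is among those with the largest higher values, and Rpl28 is in the list from the single cells.
Rpl38, chr11:114668540-114668609, plus strand: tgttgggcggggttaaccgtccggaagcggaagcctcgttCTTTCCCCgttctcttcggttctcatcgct
Rpl35a, chr16:33056442-33056511, plus strand: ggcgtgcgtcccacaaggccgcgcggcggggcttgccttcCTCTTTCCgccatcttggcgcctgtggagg
Rps21, chr2:180257339-180257408, plus strand: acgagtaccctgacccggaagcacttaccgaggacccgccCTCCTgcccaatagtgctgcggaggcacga
Rps6, chr4:86857338-86857407, minus strand: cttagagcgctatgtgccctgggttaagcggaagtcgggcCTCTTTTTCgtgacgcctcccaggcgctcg
Rpl28, chr7:4792925-4792994, plus strand: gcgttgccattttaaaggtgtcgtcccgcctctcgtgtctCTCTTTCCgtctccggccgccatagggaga

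The run was 8 bases long in Rpl38, Rpl35a and Rpl28, 9 in Rps6 and 5 in Rps21. Annotated starts can lie some bases away from the start that a cell uses. When a C and at least 6 further pyrimidines were accepted anywhere within 15 bases of an annotated start, 55.0% of the 60 genes had the motif, against 19.4% of all genes. Within the whole window of 250 bases before and 50 from the start, the heptamer CTTCCGG, the core to which ETS family factors bind, was found on either strand in 41.7% of the 60 genes and in 9.93% of all genes. The heptamer begins with pyrimidines and can overlap a TOP run. TATAAA on either strand was found in 11.7% of the 60 genes and in 15.7% of all genes. A match is a string in a window and not a bound site, and a gene counts once if any of its annotated starts has a match.

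Libraries held 313524 to 1901374 counts. CPM are read counts scaled to a common library size by TMM factors. On the total counts of a library, without these factors, 3 counts stood for between 1.58 and 9.57 CPM. In the scaled CPM given elsewhere the same counts have slightly higher values. Reads were amplified by PCR without molecular identifiers in the counts, so limits of this kind cover counting error only. The libraries carried 3 primer barcodes, and depth went with them: barcode 9 marked 3 libraries of each group, barcode 8 marked untreated mouse 4 and aLAG3 mice 8, 10 and 11, and barcode 10 marked untreated mouse 2. The titles also carry a second library code with 8 values, of which 3 mark untreated and 6 mark aLAG3 libraries. Only 1 of the 8, that of untreated mice 2 and 3 and aLAG3 mouse 10, marks both groups, and none does within barcode 9, so this code and the treatment can mostly not be told apart. The 9 CD8 T cell markers summed to 6070 to 6344 CPM in untreated libraries and to 5869 to 6559 CPM in aLAG3 libraries. Those of other cells were lower, with 0 to 15.4 and 0 to 20.3 CPM over 3 CD4 T cell genes, 0 to 5.34 and 0 to 10.1 CPM over 7 B cell genes, and 23.1 to 56.3 and 24.8 to 162 CPM over 9 myeloid genes. They were 13.3 to 23.1 and 2.52 to 22.3 CPM over 5 NK cell genes, and 0 to 1.64 and 0 to 13.5 CPM over 5 red cell genes. The 9 genes of tumor cells and stroma summed to 143 to 218 and to 162 to 233 CPM, mostly from Pecam1. Cd4 and Foxp3 had at most 1 count in a library. The part of these cells in the differences given here was not tested.

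Ribosomal protein genes took nearly the same share of the transcriptome in both groups. The 82 genes held 18.5%, 18.2%, 19.1%, 18.3% and 19.2% of the counts in untreated mice 1 to 5. In the aLAG3 mice the lowest share was 18.2%, the median 18.6% and the highest 18.9%. The groups overlapped, with untreated mouse 5 highest of the 11 and aLAG3 mouse 7 lowest. The log2 difference of the mean share was -0.0078, smaller than the spread between libraries of a group, 0.030 (SD). Within primer barcode 9 the difference was -0.040. Within barcode 8 it went the other way, the single untreated library (18.3%) lying below the 3 aLAG3 libraries (18.5% to 18.9%). In bulk RNA, fewer ribosomal protein mRNAs per cell and a higher content of other RNA cannot be told apart.

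The ratio of large-subunit to small-subunit counts differed between the primer barcodes, and with them between depths. It was 1.25 to 1.27 in the 6 libraries with barcode 9 and 1.21 to 1.24 in the 4 libraries with barcode 8. Without Rpl27, which is described later, the ranges were 1.23 to 1.25 and 1.20 to 1.23, and they still did not overlap. The library with barcode 10, which is as shallow as those with barcode 8, had 1.24 with and 1.22 without Rpl27. Within barcode 8 the untreated library (1.24) lay above the 3 aLAG3 libraries (1.21 to 1.23). By treatment the ratio overlapped, with 1.24 to 1.26 in untreated and 1.21 to 1.27 in aLAG3 libraries.

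**Figure D1:**
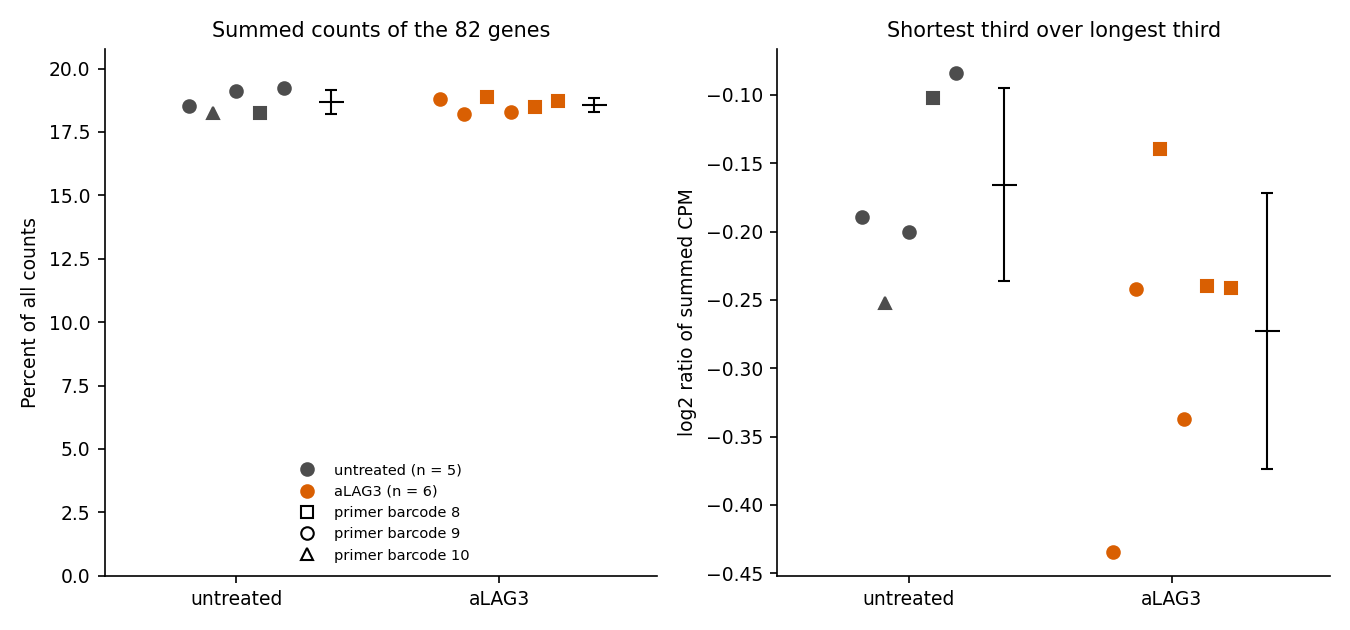
Left, the percent of all counts of a library on the 82 ribosomal protein genes. Right, the log2 ratio of summed CPM of the 26 shortest to the 26 longest of these genes by coding length. Each point is a library, symbols give the primer barcode, and bars are the mean ± SD of a group. The shares lie between 18.2% and 19.2% in both groups, and the ratio is below 0 in every library and overlaps between the groups.

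Of the 82 genes, 79 passed the filter on low counts and entered the test of 6949 genes. The other 3 were near absence. Rpl3l, the muscle paralog of Rpl3, had 0 counts in each library, which allows up to 3 counts. On total counts without TMM factors this limit is 1.58 to 9.57 CPM, and it is slightly higher in the scaled CPM. Rpl39l, a paralog known from testis, had 0 to 7 counts, with 17.9 CPM in untreated mouse 4 and at most 3.75 CPM in the others. Rps4l, annotated as a transcribed pseudogene, had 0 to 8 counts.

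The levels of the 79 genes spanned 47.8 to 6475 CPM, with a median of 2161 CPM against 49.9 CPM over all genes tested. Of the 79, 76 lay above 500 CPM, as did 234 other genes. The 20 genes with the highest mean CPM included 12 ribosomal protein genes, and Rpl13a ranked 5 among all genes. Rpl13a, Rplp0, Rps3 and Rps15a were among the members of highest mean CPM. Per kilobase of coding sequence, their mean levels were 10632 CPM for Rpl13a, a large-subunit protein also known from the GAIT complex, and 5371 CPM for Rplp0, the base of the stalk. Rps3, a protein of the mRNA entry side of the small subunit, had 6386 CPM and Rps15a had 11576 CPM per kilobase. The lowest tested genes were Rpl32l and Rpl6l, which are annotated as pseudogenes, and Rps27l. Rps27l, a p53-responsive paralog of Rps27, had 573 CPM per kilobase, the lowest level among the tested genes with a coding length, and Rpl41, which encodes the shortest ribosomal protein, had the highest with 51847. Coding length and mean CPM were nearly unrelated over 77 genes (Spearman rho 0.086), and whether reads cover the whole transcript is not given in the sources used here, so division by length can set the shortest genes too high.

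**Figure D2:**
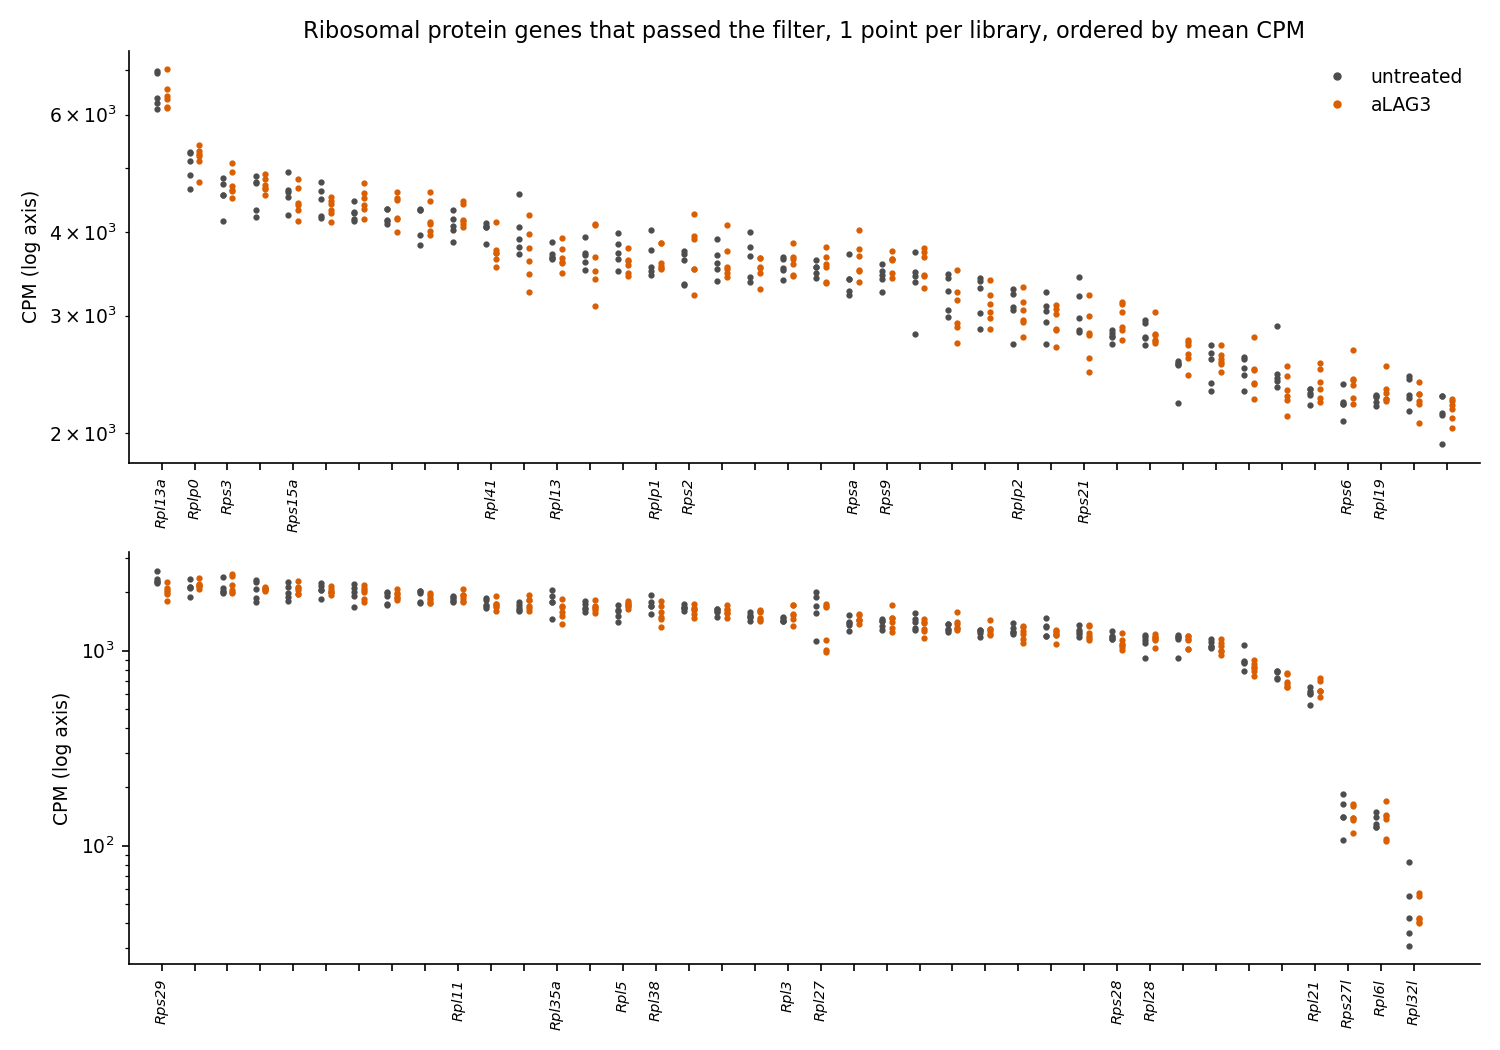
CPM on a log axis of the 79 tested ribosomal protein genes in each library, ordered by the mean of all libraries, with some of the genes described in the text named on the axis. Grey points are untreated and orange points aLAG3 libraries. The points of both groups overlap for each gene, Rpl13a is highest, Rpl27 splits into a higher and a lower cluster, and Rps27l, Rpl6l and Rpl32l lie far below the rest.

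The spread between mice was small. The median biological coefficient of variation of the 79 genes was 0.074, against 0.083 for the 234 other genes above 500 CPM and 0.12 for all genes tested. The median SD of log2 CPM around the group means was 0.086, against 0.12 for those 234 genes. Rps9, Rpl19 and Rpl13 varied least, with SDs of 0.050, 0.051 and 0.051. Rpl32l, Rpl27 and Rps27l varied most, with SDs of 0.39, 0.36 and 0.23, and Rpl27 was the only one of these 3 at a high level. The residuals of 76 members above 500 CPM had a median pairwise Pearson r of 0.21 over the 11 libraries, against 0.037 between members and the 234 other genes and 0.013 among those other genes. These correlations share libraries, depth and primer barcodes and are a description. The members and the 234 other genes were not matched on level, and SDs of log2 CPM hold counting error, which falls with level. The part of level in these spreads and correlations was not tested.

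LAG-3 blockade changed no ribosomal protein gene past the threshold. None of the 79 genes had an adjusted p under 0.05 by the quasi-likelihood test of edgeR, adjusted after Benjamini and Hochberg over all 6949 genes, of which 0 (0.0%) did, and the lowest adjusted p of a member was 0.999. Without adjustment 259 genes had a p under 0.05, 1.74% of all tested genes being higher and 1.99% lower in aLAG3 mice. Among the 79 members 1 was higher and 3 were lower. With DESeq2, 0 members were higher and 2 lower, beside 1.02% and 1.32% of all genes. With the primer barcode in the model and without untreated mouse 2, 2 were higher and 8 lower, beside 1.89% and 2.79% of all genes. No member had groups without overlap in CPM, while 0.475% of all genes did. The likelihood ratio test of edgeR and DESeq2 also called 0 genes.

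The differences were bounded closely, since counts were high. The log2 fold changes of aLAG3 over untreated ran from -0.25 to 0.12, and 63 of 79 were smaller than 0.1 in size. The median standard error (SE) was 0.059, against 0.19 over all genes tested. Of the 79, 40 were higher and 39 lower, or 50.6% higher against 51.1% of all genes, with a median log2 fold change of 0.0041 against 0.0045. The interval of ± 2 SE reached past -0.25 or 0.25 for 11 members. A missed threshold does not show that the levels were the same.

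The 3 members that were lower at an unadjusted p under 0.05 were Rps29, Rpl38 and Rpl41, which are among the smallest ribosomal proteins. Rps29, a zinc-binding protein of the small-subunit head, had 2239, 2268, 2210, 2328 and 2564 CPM in untreated mice 1 to 5. In aLAG3 mice the lowest value was 1805, the median 2028 and the highest 2237 CPM. The groups overlapped by a single pair of libraries, untreated mouse 3 lying just below aLAG3 mouse 8. The log2 fold change was -0.20 ± 0.060 (SE; unadjusted p = 0.00244, adjusted p = 0.999 in edgeR's quasi-likelihood test).

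Rpl38, a large-subunit protein known for a role in the translation of Hox mRNAs in the embryo, had 1704, 1549, 1693, 1783 and 1940 CPM in untreated mice. In aLAG3 mice it ranged from 1323 to 1791 CPM with a median of 1536. The 3 lowest libraries were aLAG3 mice 6, 9 and 7, which carry primer barcode 9, and the highest aLAG3 library, mouse 8, exceeded 4 untreated libraries. The log2 fold change was -0.16 ± 0.072 (SE; unadjusted p = 0.0307, adjusted p = 0.999 in edgeR's quasi-likelihood test), and -0.33 within barcode 9.

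Rpl41 had 4074, 4077, 4131, 3842 and 4085 CPM in untreated mice. In aLAG3 mice it ranged from 3551 to 4145 CPM with a median of 3728. Untreated mouse 4 and aLAG3 mouse 8 stood apart from their own groups, each on the side of the other group. The log2 fold change was -0.11 ± 0.050 (SE; unadjusted p = 0.0430, adjusted p = 0.999 in edgeR's quasi-likelihood test).

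The 1 member that was higher at an unadjusted p under 0.05 was Rpl5, which with Rpl11 and 5S ribosomal RNA forms the particle that can bind MDM2. Rpl5 had 1722, 1411, 1606, 1503 and 1619 CPM in untreated mice. In aLAG3 mice it ranged from 1635 to 1805 CPM with a median of 1713. Untreated mouse 1 lay inside the aLAG3 range and the other 4 below it. The log2 fold change was 0.12 ± 0.059 (SE; unadjusted p = 0.0487, adjusted p = 0.999 in edgeR's quasi-likelihood test), and 48.9% of its 50-base stretches are found in other genes too. The unadjusted p of Rpl5 was under 0.05 in 4 of the 20 alternative fits and reached 0.247 within primer barcode 9, where edgeR gave it an adjusted p of 0.986. The same count was 20 of 20 for Rps29, 14 for Rpl38 and 11 for Rpl41. Its partner Rpl11 had 1844 ± 54.1 CPM untreated (SD, n = 5) against 1895 ± 105 CPM under blockade (SD, n = 6), or a log2 fold change of 0.039.

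**Figure D3:**
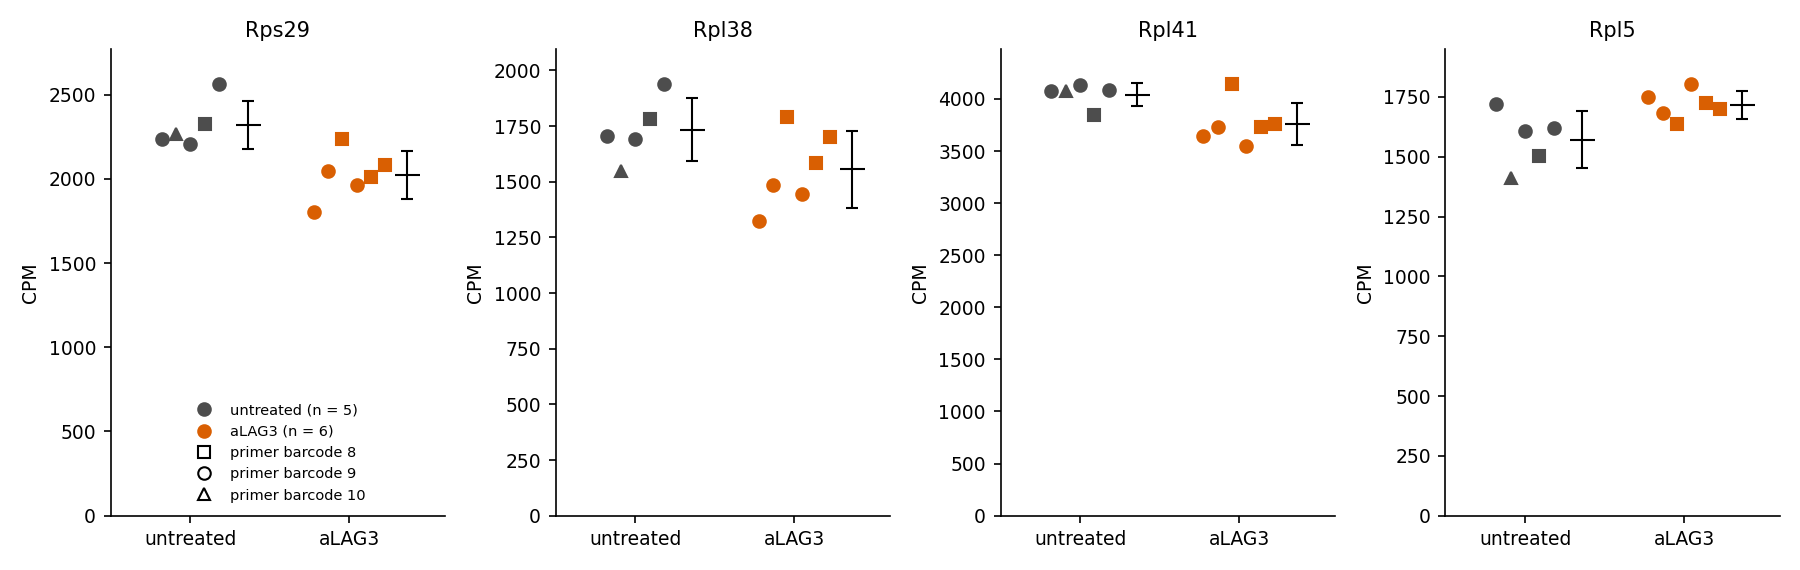
CPM of Rps29, Rpl38, Rpl41 and Rpl5 in each library, on axes that start at 0. Symbols give the primer barcode and bars the mean ± SD of a group. Rps29 spans 2210 to 2564 CPM in untreated and 1805 to 2237 CPM in aLAG3 libraries, and for each of the 4 genes the groups overlap.

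The other genes of the largest differences had unadjusted p above 0.05. Lower on average were Rpl27 (log2 fold change -0.25), Rpl35a (-0.15) and Rps21 (-0.12). Rpl35a, a large-subunit protein mutated in Diamond-Blackfan anemia, had 1791 ± 219 CPM untreated (SD, n = 5) against 1610 ± 166 CPM under blockade (SD, n = 6), and Rps21, a small-subunit protein, 3063 ± 252 and 2820 ± 272 CPM. Higher on average were Rps6 (0.10), Rpl3 (0.10), Rpl21 (0.10) and Rpsa (0.097). Rps6, the substrate of the S6 kinases, had 2222 ± 100 CPM untreated (SD, n = 5) against 2384 ± 158 CPM under blockade (SD, n = 6). Rpl3, which lines the peptidyl transferase center, had 1442 ± 29.3 and 1546 ± 148 CPM, and Rpsa, also known as the laminin receptor, had 3402 ± 194 and 3646 ± 238 CPM. For Rpl27, Rps21, Rpl21 and Rpl3 the difference of the means was smaller than the SD of the aLAG3 group.

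Short lists of ribosomal protein genes by function gave small differences, and Rpl5 was the only gene in these lists with an unadjusted p under 0.05. The stalk proteins, which recruit the translational GTPases, had log2 fold changes of 0.040 (Rplp0), -0.0042 (Rplp1) and -0.024 (Rplp2). Of 9 genes mutated in Diamond-Blackfan anemia, 4 were higher and 5 lower, with a median of -0.018. Beside Rpl5, Rpl11 and Rpl35a, they included Rps7 (0.052), Rps24 (0.023), Rps10 (-0.018), Rps19 (-0.040) and Rps26 (-0.049). In a list of 5 small-subunit genes, Rps2, Rps23 and Rpsa among them, each was higher, from 0.0097 for Rps23 to 0.097 for Rpsa, and none had an unadjusted p under 0.05. The list does not hold every gene of the small-subunit head and mRNA channel, and Rps29 (-0.20) and Rps28 (-0.12), of the head and the mRNA exit, were lower on average. Rpl36a and Rps27l, which have close paralogs, each had -0.023, and Rpl13a had -0.022. Of 48 large-subunit members 23 were higher, with a median of -0.0047, and of 31 small-subunit members 17 were higher, with a median of 0.011.

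The 7 ribosomal protein genes that stand in the study's list from expanding and contracting clones gave a range around 0 after LAG-3 blockade. The log2 fold changes included 0.068 for Rps2, 0.048 for Rpl28, -0.0051 for Rpl10a, -0.030 for Rpl27a, -0.035 for Rpl32 and -0.12 for Rps28. Thus 2 of 7 were higher, with a median of -0.030 against 0.0045 for all genes, and none had an unadjusted p under 0.05. Rps28, a protein next to the mRNA exit of the small subunit, had 1183 ± 44.1 CPM untreated (SD, n = 5) against 1091 ± 78.6 CPM under blockade (SD, n = 6). Rps2, at the mRNA entry, had 3557 ± 199 and 3730 ± 377 CPM. Together the 7 genes held 1.42% to 1.56% of the counts in untreated and 1.40% to 1.58% in aLAG3 libraries. Of the 82 genes, 75 also belong to a co-expression module of the study's single cells, Module 2, and 39 of these 75 were higher.

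The direction of the differences went with the length of the gene, a pattern that was seen in the ordered fold changes and not looked for beforehand. Over 77 tested members with a coding length, the Spearman rho of log2 fold change and coding length was 0.74. It was 0.68 for 46 large-subunit and 0.86 for 31 small-subunit genes, 0.87 for the 31 genes with under 20% shared 50-base stretches, and 0.58 with transcript length in place of coding length. Genes are not independent replicates, and the rho is a description of these libraries. Among 5960 other genes the rho was -0.034, and among 152 other genes above 500 CPM with coding lengths in the range of the members it was 0.22. The rho with mean CPM was 0.11.

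Split by coding length, the 26 shortest members (75 to 399 bases) had a median log2 fold change of -0.052, with 23 lower and 3 higher. The 26 longest (564 to 1257 bases) had a median of 0.050, with 21 higher and 5 lower, and the 25 between them had 0.011. Rps29, Rpl38 and Rpl41 are among the 26 shortest and Rpl5 among the 26 longest. Each of these differences is small, and only the 4 named genes of the 77 had an unadjusted p under 0.05.

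**Figure D4:**
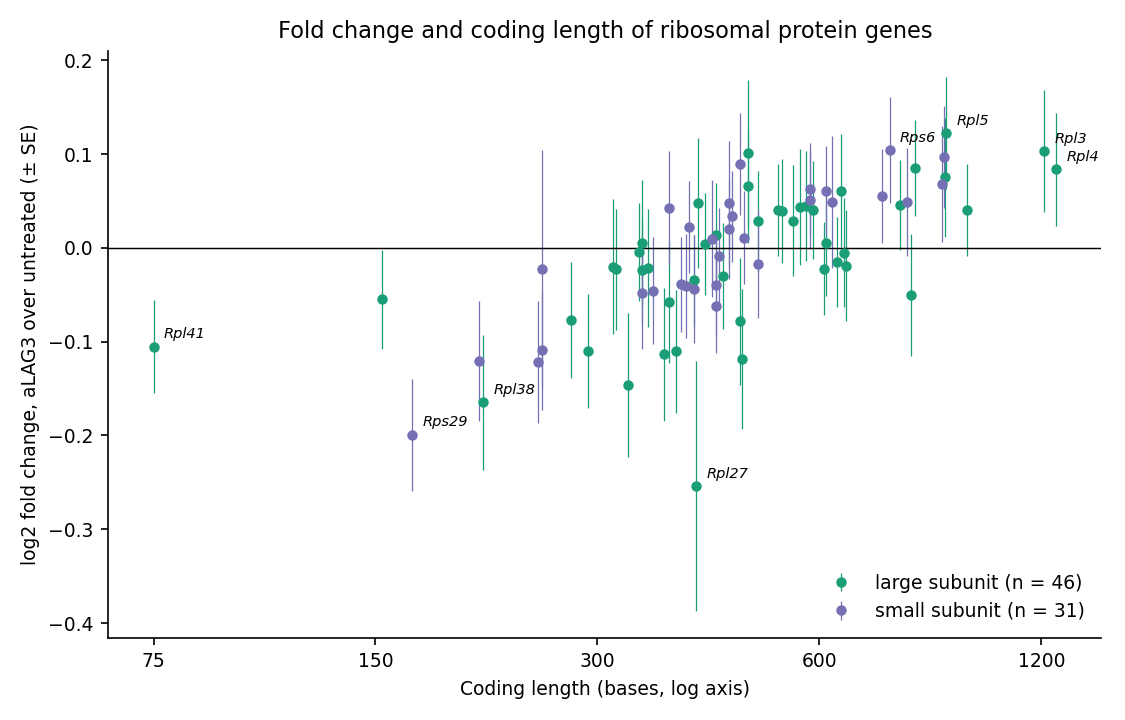
log2 fold change of aLAG3 over untreated (± SE) against coding length in bases, on a log axis, for 77 ribosomal protein genes. Points are genes, colored by subunit, and the line marks no difference. Short genes lie mostly below 0 and long genes mostly above it, and Rpl27 lies far below genes of its length.

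The tilt between short and long genes varied among libraries of the same group. The log2 ratio of summed CPM of the 26 shortest to the 26 longest genes was -0.19, -0.25, -0.20, -0.10 and -0.084 in untreated mice 1 to 5. In aLAG3 mice the lowest value was -0.43, in mouse 6, the median -0.24 and the highest -0.14, in mouse 8. The groups overlapped, since untreated mouse 2 lay below 4 of the aLAG3 libraries, and the mean difference was -0.11, against an SD within groups of 0.087. Within primer barcode 9 the 3 untreated libraries (-0.20 to -0.084) lay above the 3 aLAG3 libraries (-0.43 to -0.24). Within barcode 8 the single untreated library (-0.10) lay above the 3 aLAG3 libraries (-0.24 to -0.14). The mean difference without aLAG3 mouse 6 was -0.074. Among the 3 libraries that share a second code, aLAG3 mouse 10 (-0.24) lay between untreated mice 2 and 3 (-0.25 and -0.20). Among aLAG3 libraries, those with barcode 9 lay below those with barcode 8. With treatment in the model, the log2 fold change of barcode 8 over 9 was 0.19 for Rpl38 and 0.16 for Rps27, which are short. It was -0.17 for Rpl4 and -0.13 for Rpl3, which are long. Rpl35a (-0.26), a short gene, and Rpsa (0.031), a long gene, were among those that went the other way. The part of the barcodes in the length pattern was not tested. Counts on mitochondrial genes were 2.1% to 2.14% of a library in untreated and 2.1% to 2.44% in aLAG3 mice. Except in mouse 7 (2.1%), the aLAG3 libraries had 2.21% to 2.44%, above every untreated library. The part of mitochondrial counts in the tilt was not tested.

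In the 6 libraries with primer barcode 9 alone, 79 members gave 3 higher and 13 lower genes at an unadjusted p under 0.05, where 2.09% and 2.59% of 9071 genes were higher and lower. The 3 higher genes were Rpl3 (log2 fold change 0.17), Rps6 (0.15) and Rpl4 (0.12), which are among the 26 longest. Of the 13 lower genes 12 were among the 26 shortest. They were led by Rpl38 (-0.33), Rps29 (-0.27), Rps27 (-0.24) and Rps21 (-0.23). By edgeR's test each of the 16 genes had 0.986 as adjusted p. Over all the fits run, the lowest adjusted p of a member lay between 0.515 and 1.000.

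The start motif was set beside the fold changes as well. The 14 tested genes with a C and a pyrimidine run at an annotated start had a median log2 fold change of -0.028 with 4 higher, and the 44 other tested genes with a promoter sequence had a median of -0.00053 with 22 higher. Rpl38, Rpl35a and Rps21, whose starts are printed above, are short genes as well.

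Rpl27, the member with the largest difference between the groups, followed the primer barcode. It had 1696, 1562, 1884, 1119 and 1990 CPM in untreated mice 1 to 5. In aLAG3 mice it ranged from 984 to 1729 CPM with a median of 1404. The 4 libraries with barcode 8 had 984 to 1140 CPM, and the 7 others had 1562 to 1990 CPM, with no library between them. Since 3 of the 4 barcode 8 libraries are from aLAG3 mice, the unbalanced barcodes enter the group means. With the barcode in the model and without untreated mouse 2, the log2 fold change for treatment was -0.13 in place of -0.25, and within barcode 9 it was -0.13.

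The difference between barcodes was tested after it had been seen. With the treatment group in the model, edgeR's quasi-likelihood test of barcode 8 against barcode 9 gave 26 of 7827 genes with an adjusted p under 0.05, or 0.332%, and 1 of the 79 members, Rpl27. Rpl27 ranked 1 by p among all genes, with a log2 fold change of -0.70 ± 0.067 (SE, adjusted p = 9.7e-07 in edgeR's quasi-likelihood test). With each library left out in turn, 8 to 26 genes were called and the log2 fold change of Rpl27 lay between -0.75 and -0.68, and its adjusted p stayed at or below 6.4e-05. Rps13, a small-subunit protein, had a log2 fold change of 0.24 (adjusted p = 0.0585 in edgeR's quasi-likelihood test) and was called as well without aLAG3 mouse 11 (0.27, adjusted p = 0.0404). A pair of rows that share sequence with Rpl27, Gm11518 and the pseudogene Rpl27-ps3, differed in the same direction, by -0.84 ± 0.092 and -0.59 ± 0.086 (log2 fold change ± SE). Gm11518 had 284 to 337 CPM with barcode 8 and 508 to 653 CPM in the other libraries. The 3 rows share sequence, so their reads cannot be told apart with certainty, and depth differs between the barcodes too. Which property of these libraries moves Rpl27 was not tested.

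**Figure D5:**
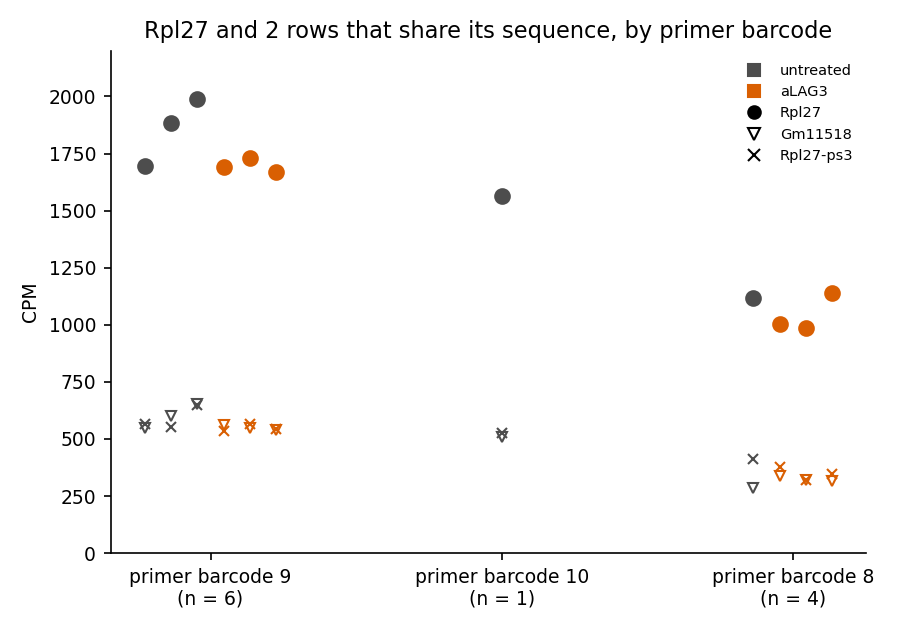
CPM of Rpl27 (circles), Gm11518 (triangles) and Rpl27-ps3 (crosses) in each library, grouped by primer barcode and colored by treatment, on an axis that starts at 0. Rpl27 lies at 984 to 1140 CPM in the 4 libraries with barcode 8 and at 1562 to 1990 CPM in the other 7, whatever the treatment.

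Shared sequence limits what a count of a single member means. In the median member 23.9% of the 50-base stretches of its transcripts recur in those of another gene, and 7 of the 82 genes share more than 50%. The 297 rows with an Rpl or Rps symbol and -ps held 2.85% to 3.10% of the counts of a library, and how reads with several matches were counted is not stated. The 31 tested members with under 20% shared stretches had a median log2 fold change of -0.023, with 14 higher.

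Ribosomal proteins under other symbols gave values of the same size. Of 9 such genes 6 were higher and 3 lower, with a median log2 fold change of 0.044. The 1 of them with an unadjusted p under 0.05 was Rps3a1, a small-subunit protein, with 1745 ± 94.2 CPM untreated (SD, n = 5) against 1908 ± 94.5 CPM under blockade (SD, n = 6), or a log2 fold change of 0.13. The other values lay between -0.11 for Rps27rt and 0.12 for Rpl7l1. Fau, which is made as a fusion with a ubiquitin-like protein, had -0.046, and Rack1, a scaffold on the small-subunit head, had 0.057. Rpl22l1 and Rpl36al had 0.044 each, and Rpl37rt had -0.057.

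None of the listed genes that make or control ribosomes passed the threshold, with 0.999 as the lowest adjusted p from edgeR. Of 28 tested ribosome biogenesis genes 16 were higher and 12 lower, and 1, Rrp9, lower with a log2 fold change of -0.73, had an unadjusted p under 0.05. Npm1, a nucleolar chaperone, had a log2 fold change of 0.13, Ncl, encoding nucleolin, 0.046, and Fbl, the methyltransferase of ribosomal RNA, 0.044. Of 8 tested genes of RNA polymerase I and its factors, which transcribe the large ribosomal RNA, 6 were higher, and of 11 tested genes of mTORC1 and TOP control 5 were higher. None of these had an unadjusted p under 0.05. Larp1, which binds TOP mRNAs, had 26.7 ± 1.46 CPM untreated (SD, n = 5) against 22.3 ± 8.95 CPM under blockade (SD, n = 6), and Mtor was too low to be tested, with 2 to 26 counts. Of 6 tested genes of the MYC network 3 were higher and 3 lower, with a median of 0.011. Mxd1, a MYC antagonist, had 111 ± 25.2 CPM untreated (SD, n = 5) against 84.2 ± 21.5 CPM under blockade (SD, n = 6), with a log2 fold change of -0.37 (unadjusted p = 0.0221, adjusted p = 0.999 in edgeR's quasi-likelihood test). Myc had 42.9 ± 11.0 CPM untreated (SD, n = 5) against 60.8 ± 12.5 CPM under blockade (SD, n = 6), or a log2 fold change of 0.51 ± 0.19 (SE; unadjusted p = 0.0137, adjusted p = 0.999 in edgeR's quasi-likelihood test), and the groups overlapped.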

How the data were processed

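The authors trimmed reads, mapped them to mouse reference RNA of GRCm38 and counted them per gene. The deposited values are these raw counts. The notes with the samples name cutadapt 4.1 and Bowtie2 2.4.5, and the methods name other versions of both. Treatment of reads with several matches and of strand is not stated. Columns were assigned to samples through the titles in the labels.

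Genes reaching 17.7 CPM (10 counts in a library of median depth) in 5 libraries, and 15 counts in all, were kept with filterByExpr, normalized by TMM and tested with edgeR 4.0.16 (quasi-likelihood test, Benjamini-Hochberg adjustment over all genes, threshold 0.05, R 4.3.3). The SE is the absolute log2 fold change over the root of F. log2 CPM used a prior count of 2. DESeq2 1.42.0, the likelihood ratio test, other normalizations and filters, primer barcodes and each library left out were alternatives. Coding lengths and coordinates come from GENCODE M21, promoters from RefSeq.

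The members, lists and tests were chosen with earlier results of these data known. Named genes are the 5 highest members, the 5 largest differences each way, those with an unadjusted p under 0.05 or groups without overlap, the 3 most and 3 least variable, those in the study's list from single cells, stalk, 5S particle, Diamond-Blackfan and paralog genes, untested members, ribosomal proteins under other symbols, and Myc, Mtor, Larp1, Npm1, Ncl and Fbl. Genes named within primer barcode 9, Rpl6l, Rrp9, Rps13, Rps23, Mxd1, Gm11518 and Rpl27-ps3 were chosen after their values were seen. The comparisons by coding length and between barcodes were also chosen after seeing the data. Results for some genes under this rule are not reported here.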

Additional observations from a re-analysis of the deposited data

Results flagged for a closer look

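In 4 of 80 sets of values looked at (a named gene or a sum over the members, in 1 group), a library lay far from the others of its group by Dixon's criterion, and chance gives about 4. Rpl41 had 3842 CPM in untreated mouse 4, below the 4074 to 4131 CPM of the other untreated mice, and 4145 CPM in aLAG3 mouse 8, above the 3551 to 3764 CPM of the other aLAG3 mice. Both libraries carry primer barcode 8. Rpl13 had 3871 CPM in untreated mouse 3, above 3651 to 3710 CPM in the others. Rpl19 had 2519 CPM in aLAG3 mouse 6, above 2234 to 2329 CPM. The cause was not tested.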

How the results depend on the processing

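No alternative gave a member with an adjusted p under 0.05. Over all genes, the count of such genes was 0, and became 3 with no filter on low counts, 1 with the primer barcode as a covariate and 0 to 2 with a library left out, the 2 without aLAG3 mouse 7. The count of members with an unadjusted p under 0.05, 4, became 2 with DESeq2, 10 with the barcode as a covariate, 16 within barcode 9 and 1 to 8 with a library left out, the 1 without untreated mouse 5 and the 8 without aLAG3 mouse 8, and was 2 without untreated mouse 3 and without aLAG3 mouse 7 or 9. As shares this was 5.06% of members against 3.73% of all genes in the main comparison, 2.53% against 2.35% with DESeq2, 12.7% against 4.68% with the covariate (8 lower, 2 higher) and 20.3% against 4.69% within barcode 9. With a library left out it was 1.27% to 10.1% of members against 3.46% to 5.31% of all genes. The median log2 fold change of the members was -0.049 within barcode 9 and the log2 difference of their share -0.040. Within barcode 8 their share was lower in the single untreated library (18.3%) than in the 3 aLAG3 libraries (18.5% to 18.9%). With other normalizations the median log2 fold change lay between -0.0014 and 0.0049, with 39 or 40 members higher. The barcode covariate and the fit within barcode 9 use fewer libraries. The rho with coding length, an alternative chosen after seeing the data, stayed between 0.61 and 0.87 in every fit and subset run, the 0.61 without aLAG3 mouse 6. With transcript length in place of coding length it was 0.58. The share of members with a TOP start was 20.0% with a C and at least 5 further pyrimidines and 16.7% with a C and at least 7 (2.05% and 0.936% of all genes). It was 36.7% with a start within 2 bases (10.6% of all genes) and 55.0% within 15 bases (19.4%).

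Of 37 named tested members, 6 changed sign in a fit with all libraries or a barcode subset, all with main values of at most 0.048 in size, and 8 with a library left out. With the barcode as a covariate the log2 fold change was 0.031 for Rpl10a, 0.13 for Rpl32l, -0.0045 for Rps24 and 0.057 for Rps27l. Within barcode 9 it was 0.028 for Rpl10a, -0.010 for Rpl28, 0.042 for Rpl32l, -0.015 for Rps24 and 0.11 for Rps27l. With no filter it was 0.0040 for Rpl10a and 0.0023 for Rplp1. With a library left out, it ranged from -0.034 to 0.017 for Rpl10a, -0.052 to 0.00055 for Rpl13a, -0.0097 to 0.076 for Rpl28, -0.14 to 0.11 for Rpl32l, -0.053 to 0.0073 for Rpl36a, -0.027 to 0.029 for Rplp1, -0.066 to 0.00076 for Rplp2 and -0.11 to 0.039 for Rps27l. The cause was not tested. No paired analysis was possible because the groups share no replicate number in the labels.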
